A study of Oryctolagus cuniculus with 16 samples.

Results

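Tissue beside turned copper implants was compared with tissue from drilled holes that received no implant, in the tibiae of 4 rabbits 10 days after surgery. The comparison takes 8 of the 16 RNA sequencing libraries of the study: the 4 that the labels give as implant type Turned Cu and the 4 that they give as Sham, 1 of each from every rabbit. Each animal carried 4 drilled holes, proximal and distal in both tibiae. The other 8 libraries come from turned titanium and from SLA titanium, a sandblasted and acid-etched surface, and enter here as part of the fitted model and as side values. All of the animals therefore carried copper, both kinds of titanium and an empty hole at once, and the hole called Sham was drilled in a rabbit that had a copper implant elsewhere. After the implants were taken out, the walls of the holes were scraped with a curette and total RNA was extracted from the scrapings, so that a library can hold bone, marrow, repair tissue and blood. The labels used here give no strain, sex or age. Turned Cu lay at the distal site in rabbits 1 and 3 and at the proximal site in rabbits 2 and 4, with Sham at the opposite level in each animal. The 2 holes shared a tibia in rabbits 1 and 3 and lay in opposite tibiae in rabbits 2 and 4.

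A drilled hole in bone fills first with clot and then with leukocytes, new vessels and fibroblast-like repair cells, which lay down matrix that osteoblasts mineralise. Copper is an essential cofactor, for example of the lysyl oxidases that crosslink collagen. Free copper ions react with thiols and generate reactive oxygen species, and the transcription factors NRF2, ATF4 and HSF1 turn on separate sets of protective genes under thiol, amino acid and protein folding stress. Neutrophils and macrophages take up debris and microbes, and they carry their own sets of surface receptors, kinases and lysosomal pumps.

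The 8 libraries held between 8539984 and 20406474 estimated counts. Ribosomal RNA took 1.82% to 65.27% of them, and mitochondrial transcripts took 74.47% to 93.88% of the rest. Protein-coding genes were left with 965804 to 3251099 counts in the Sham libraries and 988967 to 1893841 in the Turned Cu libraries. The highest mitochondrial shares, 93.88% and 92.62%, belonged to the Turned Cu libraries of rabbits 2 and 4, the animals whose copper implant was proximal. Among the Sham libraries, that of rabbit 2 had the ribosomal share of 65.27%, and that of rabbit 3 stood apart by its level of granule genes of marrow precursors, so counts of genes that rest on either are given without it. Levels are in CPM, counts scaled to a common library size, which is a level within a gene and is not corrected for gene length. Fold changes are log2 values of Turned Cu over Sham with their standard error (SE), from edgeR's quasi-likelihood test with the rabbit as a block, 4 libraries in each group, and p-values adjusted by the Benjamini-Hochberg method over all tested genes. Nothing in the labels says how much of the scraped tissue was bone, so fewer cells of a type and less RNA per cell cannot be told apart in any value below. CPM values are listed in the order of rabbits 1 to 4. For genes with 1 to 3 counts over a group the ratio of counts per library size is given with its exact 95% interval in parentheses, which covers counting error only.

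Of 11617 tested genes, 4875 (42.0%) differed between Turned Cu and Sham at an adjusted p under 0.05. Beside copper 2643 genes (22.8%) were higher and 2232 (19.2%) were lower, and 4653 of the 4875 moved in the same direction in all 4 rabbits. The changes were large. Among the genes past the test, 2409 were at least 2-fold higher and 2090 at least 2-fold lower, and 361 and 411 passed 16-fold. Counting the libraries alone, all 4 Turned Cu values lay above all 4 Sham values in 2527 tested genes (21.8%) and below them in 2140 (18.4%). Which direction was the more numerous depended on the setting. Higher calls made up 54.2% of the calls with TMM factors, 46.7% with RLE factors (2369 higher, 2702 lower) and 38.9% with upper quartile factors (2079 higher, 3260 lower). Lower calls were also the more numerous when any 1 of the 8 libraries other than the Sham library of rabbit 2 was left out, with 45.6% to 47.7% higher, in a fit of the 8 libraries alone (49.5%) and with no filter beyond 1 count (46.2%). The median log2 fold change of all tested genes was -0.07 with TMM, -0.22 with RLE and -0.42 with upper quartile scaling, so a change is to be read against a centre that moves by that much. The authors' deposited table calls 5862 genes for the same 4 and 4 libraries, 3763 up and 2099 down. Its calls were taken at the deposited p under 0.05 with a change of at least 2-fold, which returns the 5862. Calls here use the adjusted p with no fold cut on the same counts, so the rules differ. Of the 11617 genes tested here 4827 are called in the authors' deposited table and 4422 of these passed here as well, all with the same sign, which is 90.7% of the calls here and 91.6% of the authors'. A principal component analysis of these 8 libraries, over 500 genes of high variance, put 84.2% of the variance on its first axis, with scores of -61.1 to -50.4 for Turned Cu and 39.9 to 62.8 for Sham.

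**Figure D1:**
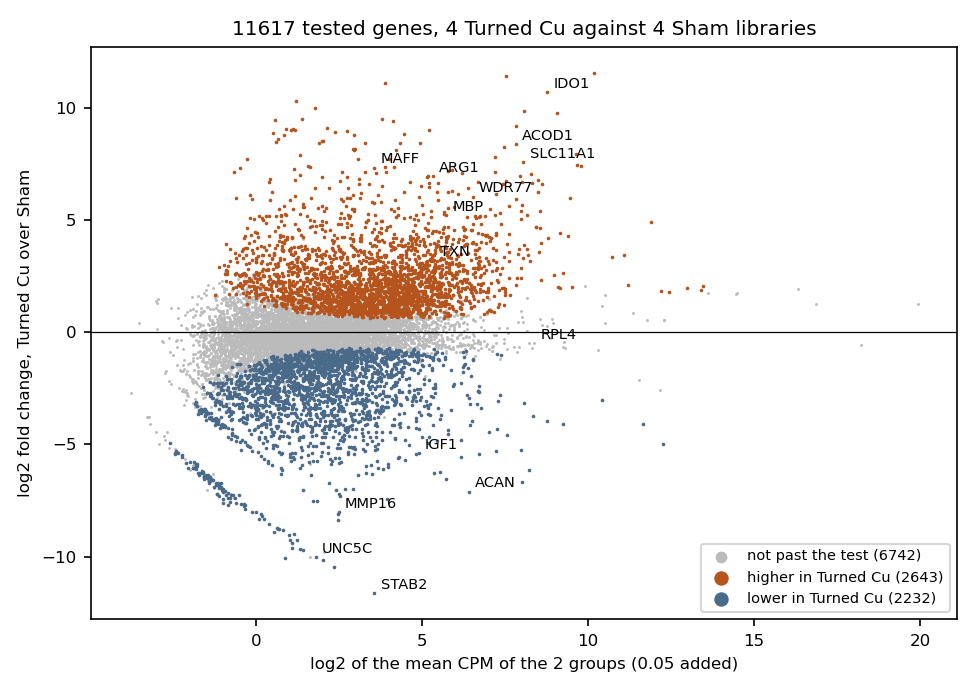
Log2 fold change of Turned Cu over Sham (vertical axis) against the log2 of the mean CPM of both groups (horizontal axis), 1 point per tested gene, coloured by whether the gene was higher, lower or not past the adjusted threshold. Of the 11617 genes, 2643 are in the higher colour and 2232 in the lower, and calls in both directions reach past 16-fold. The points along the diagonal at the lower left have no count in 1 group, and their fitted fold changes are no bounds.

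Outside the cytokines, collagen chains and metallothioneins, several of the genes highest beside copper were enzymes, receptors and transporters of activated myeloid cells that were close to the detection limit in the Sham hole. ACOD1, which makes itaconate from an intermediate of the citrate cycle (ENSOCUG00000022836, chromosome 8 from 78669407 to 78679863), was at 0.536, 0.807, 8.39 and 1.61 CPM in the 4 Sham libraries and at 641, 345, 357 and 464 CPM in the 4 Turned Cu libraries. Its log2 fold change was 8.39 ± 1.22 (edgeR adjusted p = 9.45e-05). The groups lay far apart, although the Sham library of rabbit 3 was above the other Sham libraries. SLC11A1, the pump that moves iron and manganese out of the phagosome (ENSOCUG00000016027, chromosome 7 from 159707003 to 159714443), was at 1.31, 1.35, 6.25 and 4.30 CPM in Sham and 788, 322, 599 and 391 CPM in Turned Cu (7.59 ± 0.88, edgeR adjusted p = 3.13e-05). BATF2, an interferon-induced partner of the AP-1 factors (ENSOCUG00000014263, scaffold GL018942 from 68787 to 91381), was at 0 in the Sham libraries of rabbits 1 and 2 and reached at most 0.367 CPM in the others, against 30.7, 39.6, 27.5 and 76.1 CPM beside copper (8.85 ± 1.01, edgeR adjusted p = 2.67e-05). In each of these genes the lowest Turned Cu library stood above the highest Sham library by more than the whole range within Sham.

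IDO1, which opens the breakdown of tryptophan to kynurenine, spanned 0.135 to 5.94 CPM in Sham and 746 to 947 CPM in Turned Cu (10.69 ± 1.44, edgeR adjusted p = 5.72e-05). PLEK, a substrate of protein kinase C in platelets and leukocytes, rose by 6.70 ± 0.69 on the log2 scale, from 3.34 to 8.02 to 323 to 671 CPM. OLR1, a scavenger receptor for oxidised lipoprotein, and HRH4, the histamine receptor of leukocytes, rose by 8.16 ± 1.05 and 7.38 ± 1.37 from Sham levels of at most 0.245 CPM. High levels of such genes were not confined to copper. In the SLA titanium libraries HRH4 was at 0.806, 0, 15.3 and 0.762 CPM, against 7.61, 2.15, 6.24 and 8.09 CPM in Turned Cu. IDO1 was at 5.79, 1.81, 309 and 21.0 CPM beside SLA titanium. The smallest p-values among the higher genes included 3 membrane and signalling genes of leukocytes. The integrin subunit ITGAL rose by 4.04 ± 0.38, the exchange factor VAV1 by 3.93 ± 0.39 and the docking protein GAB2 by 3.79 ± 0.37. PTPRN, a phosphatase-like protein of secretory granules, had no count in any Sham library and 188 counts over the 4 Turned Cu libraries, or at least 146-fold higher when the Sham group is put at 3 counts in all.

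Signalling proteins that leukocytes use downstream of their surface receptors rose together. All 17 tested members of a list of Fc receptors and immune kinases rose, with a median log2 fold change of 3.08, where 22.8% of all tested genes did, and the count lay between 13 and 17 over the 21 alternative settings. PIK3R5, the regulatory subunit of PI3 kinase gamma, was at 4.95, 4.44, 8.63 and 5.19 CPM in Sham and 256, 221, 387 and 168 CPM in Turned Cu (5.50 ± 0.59, edgeR adjusted p = 2.31e-05). CLEC4E, the receptor Mincle, which senses microbial glycolipids and dead cells, was at 0.358, 0.538, 0.735 and 0.281 and 22.2, 25.8, 26.5 and 16.4 CPM (5.74 ± 0.69, edgeR adjusted p = 3.68e-05). The adaptor TYROBP rose by 3.24 ± 0.35, the phosphatase PTPN6 by 3.93 ± 0.43 and the Src family kinase LYN by 3.03 ± 0.39. No member's Turned Cu library fell into the range of its Sham libraries. A count of 13 was reached with the Turned Cu libraries of rabbits 2 and 4 alone. This list and every list below were chosen with earlier results of these data known. Their shares beside those of all tested genes are therefore descriptive and no independent support. Each list count is to be read beside the 22.8% higher and 19.2% lower of all tested genes.

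Adhesion and cytoskeleton genes of leukocytes rose as well. In the list of leukocyte adhesion and migration 17 of 22 tested members were higher and 1 was lower, with a median of 2.56. ITGB2, the common subunit of the leukocyte integrins, was at 45.8, 29.1, 99.4 and 38.7 CPM in Sham and 1197, 805, 1578 and 741 CPM in Turned Cu (4.44 ± 0.51, edgeR adjusted p = 3.11e-05). The actin bundling protein LCP1 rose by 4.17 ± 0.53 and the hyaluronan receptor CD44 by 2.85 ± 0.41. Adhesion molecules of the vessel wall moved in both directions. ICAM1, a ligand of the ITGB2 integrins, rose by 1.82 ± 0.30 (edgeR adjusted p = 0.000205) and PECAM1, which leukocytes and platelets also make, by 3.95 ± 0.61 (edgeR adjusted p = 0.000145). VCAM1, the endothelial and stromal ligand of the integrin subunit ITGA4, was the member that fell, from 11.5 ± 6.24 CPM in Sham to 0.463 ± 0.618 CPM in Turned Cu (mean ± SD, n = 4, log2 fold change -4.67 ± 0.92, edgeR adjusted p = 0.000873). The endothelial selectins SELE (-2.37, edgeR adjusted p = 0.105) and SELP (-1.08, edgeR adjusted p = 0.643) and ITGA4 itself (-0.43, edgeR adjusted p = 0.383) did not pass. SELE passed as lower without the Turned Cu library of rabbit 4, with DESeq2 and with no filter beyond 1 count. VCAM1, ICAM1 and PECAM1 are named here after their values were seen.

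The NADPH oxidase makes superoxide in the phagosome, from a membrane core and subunits that join it from the cytosol. Of its 8 tested members 4 were higher, among them the cytosolic subunit NCF4 and the small GTPases RAC2 and RAC1. RAC2 was at 10.4, 6.46, 17.4 and 9.61 CPM in Sham and 82.5, 52.1, 72.1 and 61.1 CPM in Turned Cu (2.67 ± 0.55, edgeR adjusted p = 0.0011). RAC1, which most cells make, rose by 1.23 ± 0.26 and NCF4 by 3.01 ± 0.52, both with no overlap between the groups. The membrane subunit CYBB had a value of 1.44 ± 0.71 (edgeR adjusted p = 0.116), and NOX4, the relative found in stromal and vessel cells, had -1.49 ± 1.08 (edgeR adjusted p = 0.288). The count was 4 in each of the 21 alternatives, though not of the same members throughout: with the Turned Cu libraries of rabbits 2 and 4 alone RAC1 lost its call and CYBB gained one.

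Markers of mature neutrophils rose, and most granule genes of their marrow precursors did not pass. Of 13 tested markers of mature neutrophils 11 were higher, and the count was 11 in each of the 21 alternatives, with a median log2 fold change of 5.15. The formyl peptide receptor FPR2 was at 0.179, 0.404, 3.55 and 0.442 CPM in Sham and 61.4, 51.1, 81.4 and 49.4 CPM in Turned Cu (6.50 ± 1.01, edgeR adjusted p = 0.000145), and the chemokine receptor CXCR2 was at 0.417, 0.404, 10.0 and 1.29 and 111, 64.4, 97.7 and 67.8 CPM (5.91 ± 1.12, edgeR adjusted p = 0.000626). In both genes the Sham library of rabbit 3 stood above the other 3 Sham libraries and below every Turned Cu library. Of 11 tested granule genes made in marrow precursors, 1 was higher and 1 lower (9.1% each), below the 22.8% and 19.2% of all tested genes. The lower count was 2 with RLE factors and 4 with no filter beyond 1 count. It was 3 with upper quartile factors, with DESeq2 and in the fit of the 8 libraries alone. The precursor enzyme MPO had a log2 fold change of -2.91 ± 1.28 (edgeR adjusted p = 0.0804), LTF of 1.39 ± 1.37 (edgeR adjusted p = 0.444) and CAMP of -1.44 ± 1.28 (edgeR adjusted p = 0.393). MPO passed as lower in the 4 settings that gave 3 or 4 lower members. The gene called lower was EPX, the peroxidase of eosinophils, with an edgeR adjusted p of 0.0496. It was at 1.07, 0, 28.1 and 2.57 CPM in Sham and had no count in Turned Cu, and its call was lost in 11 of the 21 alternatives, among them leaving out the Turned Cu library of any rabbit or the Sham library of rabbit 2 or 3. The Sham library of rabbit 3 also held the highest summed level of the precursor list, 586.5 CPM against 15.2 to 119.2 CPM in the other Sham libraries and 127.0 to 178.4 CPM beside copper. Without it 11 mature markers were higher and 1 lower, 2 of the precursor list were higher and none of the precursor list was lower.

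Macrophage markers did not move as a block either. Beside 22.8% higher and 19.2% lower of all tested genes, 5 of 14 tested markers were higher (35.7%) and none was lower. The other 9 did not pass, and the median was 0.29. Some became lower when a library was left out, 4 without the Turned Cu library of rabbit 2, 1 without that of rabbit 4 and 2 without the Sham library of rabbit 1. Other settings did the same, with 1 lower with RLE factors, 2 with upper quartile factors, with DESeq2 and in the fit of the 8 libraries alone, and 3 with no filter beyond 1 count. The markers of resident and tissue-clearing macrophages CD163 (-0.77, edgeR adjusted p = 0.158), MRC1 (0.45, edgeR adjusted p = 0.452), MERTK (0.02, edgeR adjusted p = 0.976) and CSF1R (0.13, edgeR adjusted p = 0.831) did not pass. C1QA and C1QC, subunits of the first complement component that such macrophages make, had values of -1.47 (edgeR adjusted p = 0.183) and -1.66 (edgeR adjusted p = 0.0532). C1QC passed as lower in 13 of the 21 alternatives, RLE, upper quartile and DESeq2 scaling among them, and CD163 in 7, with upper quartile scaling and DESeq2 among them. The summed level of the list was nevertheless 962.9 to 1724.8 CPM beside copper and 162.7 to 236.0 CPM in Sham, and CD68 and GPNMB held most of it. GPNMB, a lysosomal glycoprotein of phagocytes, rose by 3.15 ± 0.92 against Sham (edgeR adjusted p = 0.0119) but was at 173 ± 201 CPM beside turned titanium (mean ± SD, n = 4), from which Turned Cu differed by 0.74 ± 0.94 (edgeR adjusted p = 0.565). The call of GPNMB was lost when the Sham library of rabbit 1 was left out.

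**Figure D2:**
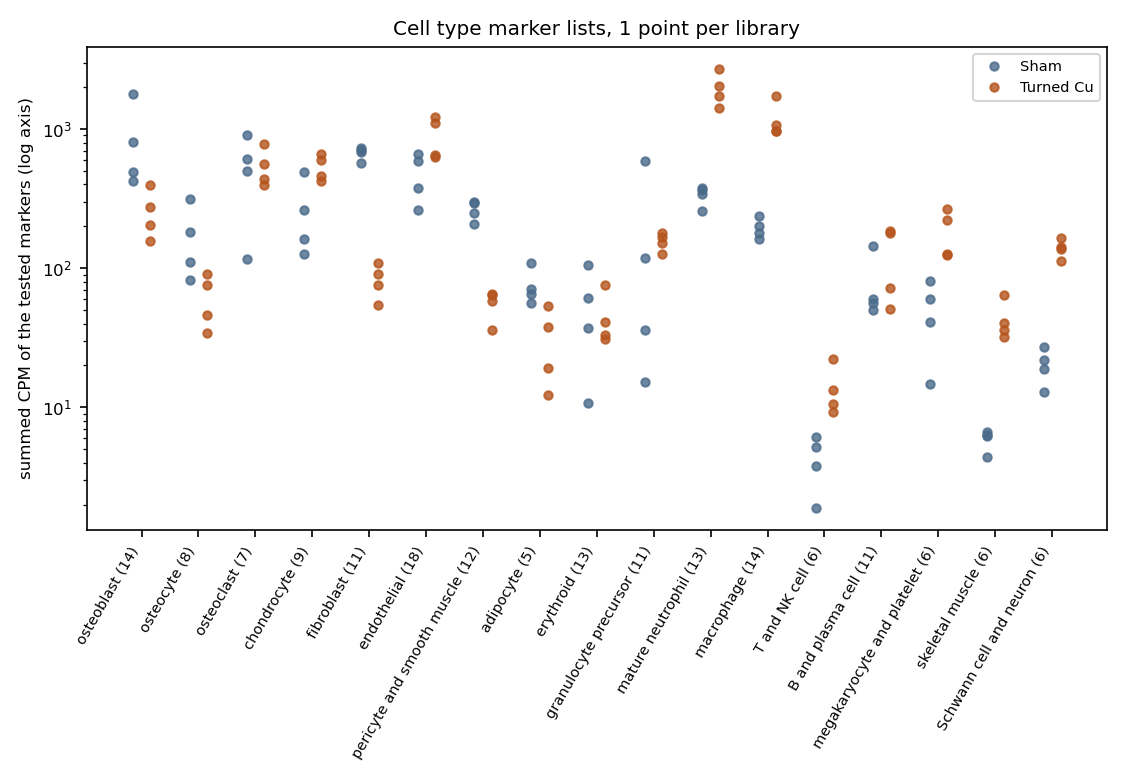
Summed CPM of the tested markers of each cell type list on a log axis, 1 point per library, Sham and Turned Cu in separate colours, with the number of tested markers after each name. Mature neutrophil and macrophage sums lie higher in all 4 Turned Cu libraries, fibroblast and pericyte sums lie lower, and the granulocyte precursor sums overlap.

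Among the other cell types the scrapings could hold, markers of T and NK cells were few and low. The 6 tested markers of T and NK cells summed to 1.9 to 6.1 CPM in Sham and 9.2 to 22.4 CPM in Turned Cu, with 3 higher, a count that was 0 with the Turned Cu libraries of rabbits 2 and 4 alone and 1 without that of rabbit 3. The 11 tested markers of B and plasma cells summed to 50.3 to 145.0 CPM in Sham and 51.2 to 185.9 CPM in Turned Cu. Of these, 1 was higher and 1 lower (9.1% each), below the 22.8% and 19.2% of all tested genes. In this list the surface receptor CD22 rose by 2.92 ± 0.37 (edgeR adjusted p = 4.14e-05) and the transcription factor EBF1 fell by 3.60 ± 0.44 (edgeR adjusted p = 3.82e-05), while JCHAIN and MZB1, which plasma cells need to assemble antibody, had values of 0.88 (edgeR adjusted p = 0.297) and -0.61 (edgeR adjusted p = 0.349). EBF1 is also made by marrow stromal and fat precursor cells. The epithelial marker KRT15 was at 0.536, 0.404, 0.490 and 2.09 CPM in Sham and 0, 0.195, 1.40 and 0.172 CPM in Turned Cu and did not pass (edgeR adjusted p = 0.617). The part of cell mixture in the gene changes below was not tested beyond these marker values.

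Genes of NF-kB feedback rose, and so did the factors that shorten the life of inflammatory messages. NF-kB turns on its own inhibitors, and RNA-binding proteins such as ZFP36 and ZC3H12A remove cytokine messages once made. In the list of NF-kB feedback and signalling adaptors 15 of 19 tested members were higher and none was lower, with 11 to 15 higher over the alternatives. IRAK2, a kinase-like adaptor of Toll-like and interleukin 1 receptors, was at 5.12, 3.50, 10.8 and 8.24 CPM in Sham and 299, 144, 327 and 156 CPM in Turned Cu (5.18 ± 0.61, edgeR adjusted p = 3.45e-05). The paracaspase MALT1 rose by 4.22 ± 0.57, the subunit REL by 2.81 ± 0.38 and the atypical inhibitor NFKBIZ by 3.68 ± 0.51. RIPK2 (0.82, edgeR adjusted p = 0.153) and TRAF3 (0.65, edgeR adjusted p = 0.115) did not pass. Of 22 tested genes of mRNA decay and translational repression 12 were higher, 3 were lower and 7 did not pass, with a median of 0.89. ZC3H12A, a nuclease also called regnase, was at 9.59, 3.63, 15.2 and 7.44 CPM in Sham and 139.8, 87.0, 102 and 68.2 CPM in Turned Cu (3.58 ± 0.52, edgeR adjusted p = 9.49e-05). The deadenylation adaptor BTG2 rose by 4.28 ± 0.69, the Argonaute protein AGO2 by 1.85 ± 0.31 and the decapping cofactor DCP1A by 1.48 ± 0.26. The general decay enzymes XRN1 (0.45, edgeR adjusted p = 0.297) and CNOT3 (0.39, edgeR adjusted p = 0.344) did not pass.

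Brakes on MAP kinase and growth factor signalling moved in both directions. Of 17 tested members 10 were higher (58.8%) and 4 lower (23.5%), beside 22.8% and 19.2% of all tested genes. DUSP1, which dephosphorylates p38 and JNK, was at 36.4, 17.2, 48.4 and 12.7 CPM in Sham and 869, 526, 822 and 436 CPM in Turned Cu (4.68 ± 0.71, edgeR adjusted p = 0.000117). GADD45G rose by 3.37 ± 0.48, the cytokine signal inhibitor CISH by 2.59 ± 0.41 and the ERK phosphatase DUSP5 by 2.65 ± 0.47. SPRY1, the feedback inhibitor of fibroblast growth factor receptors, fell by 3.40 ± 0.55 on the log2 scale, and RGS3, which switches off G protein signals, fell by 2.23 ± 0.31 (edgeR adjusted p = 7.46e-05). The receptor that SPRY1 restrains fell too. FGFR1 (ENSOCUG00000004150, scaffold GL018706 from 4965222 to 5016401) was at 78.2, 62.3, 44.1 and 60.1 CPM in Sham and 2.44, 0.781, 4.46 and 2.41 CPM in Turned Cu (-4.66 ± 0.46, edgeR adjusted p = 1.53e-05).

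Genes under NRF2, the sensor of thiol stress, rose nearly throughout their list. Of 20 tested members 18 were higher and none lower, with a median of 2.00 and a range over the alternatives of 13 to 19. TXN, thioredoxin itself, was at 7.63, 6.59, 13.7 and 6.71 CPM in Sham and 53.2, 95.8, 68.4 and 76.4 CPM in Turned Cu (3.19 ± 0.42, edgeR adjusted p = 4.77e-05). MAFF, a small partner of NRF2 on DNA, was at 0.179, 0.269, 0.122 and 0.0804 and 22.8, 18.5, 27.4 and 24.3 CPM (7.33 ± 0.97, edgeR adjusted p = 4.97e-05). Neither gene had a Turned Cu library within the Sham range. Glutathione reductase GSR rose by 2.06 ± 0.27 and sulfiredoxin SRXN1 by 3.22 ± 0.47. The haem transporter SLC48A1 (1.70, edgeR adjusted p = 0.0519) and malic enzyme ME1 (0.80, edgeR adjusted p = 0.29) did not pass, though SLC48A1 passed with DESeq2 and without the rabbit block.

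Amino acid stress genes under ATF4 rose in part. Of 20 tested members 12 were higher, 2 lower and 6 not past the test, with a median of 1.91. SLC7A5 and SLC3A2 form the exchanger that brings in leucine and other large neutral amino acids. SLC7A5 was at 6.85, 7.67, 8.33 and 9.01 CPM in Sham and 443, 411, 448 and 236 CPM in Turned Cu (5.62 ± 0.78, edgeR adjusted p = 6.69e-05), and SLC3A2 rose by 4.18 ± 0.54. The transcription factor CEBPB rose by 4.09 ± 0.58, ATF3 by 4.04 ± 0.61 and the endoplasmic reticulum protein HERPUD1 by 2.39 ± 0.34. The enzymes of serine and asparagine synthesis, which ATF4 is also known to drive, did not pass: PHGDH had -0.03 ± 0.76 (edgeR adjusted p = 0.981), PSAT1 0.09 ± 0.74 (edgeR adjusted p = 0.937) and ASNS 0.71 ± 0.66 (edgeR adjusted p = 0.415). Of 18 tested amino acid and sugar transporters, 10 were higher and 1 lower, or 2 lower without the Turned Cu library of rabbit 4 or the Sham library of rabbit 1 or 4. The lysosomal peptide transporter SLC15A3 rose by 3.18 ± 0.40, the lactate exporter SLC16A3 by 5.42 ± 0.75 and the neutral amino acid transporter SLC43A2 by 2.41 ± 0.30. The lower count was 2 as well with RLE and upper quartile factors and with DESeq2. SLC7A2, which carries arginine, had a value of -1.85 (edgeR adjusted p = 0.0595) and passed as lower in 12 of the 21 alternatives, those 3 among them.

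Arginine metabolism was led by 1 gene. ARG1, which splits arginine into ornithine and urea, was at 0.536, 0.942, 1.53 and 0.603 CPM in Sham and 85.3, 102, 69.3 and 58.2 CPM in Turned Cu (6.94 ± 1.10, edgeR adjusted p = 0.000162), with no overlap. NOS2, which turns the same amino acid into nitric oxide, had a value of -0.79 ± 0.89 (edgeR adjusted p = 0.503). ODC1, SMOX and SMS, which make and oxidise the polyamines downstream of ornithine, had values of 0.53, -0.61 and 0.24 and did not pass. In the list of arginine and polyamine genes 2 of 7 tested members were higher (28.6%), near the 22.8% of all tested genes. The count was 1 without the Turned Cu library of rabbit 1 or 2 or the Sham library of rabbit 3 or 4.

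Genes under the sterol sensor SREBP2 were mixed. Of 19 tested genes of cholesterol synthesis and uptake 8 were higher and 1 lower. The higher count was 4 without the Turned Cu library of rabbit 1 or 3, without the Sham library of rabbit 1, 3 or 4 and with upper quartile scaling, and 5 without the Turned Cu library of rabbit 2 or 4. The lower count was 2 without the Turned Cu library of rabbit 1, 2 or 4 or the Sham library of rabbit 4 and with RLE factors, and 4 with upper quartile factors and with DESeq2. With upper quartile factors the list was thus even, at 4 higher and 4 lower. INSIG1, which holds the sensor in the endoplasmic reticulum, was at 1.91, 3.09, 2.14 and 1.77 CPM in Sham and 17.8, 15.2, 25.3 and 17.0 CPM in Turned Cu (3.08 ± 0.41, edgeR adjusted p = 5.65e-05). SC5D, a late enzyme of the pathway, rose by 2.56 ± 0.45. SQLE (0.92, edgeR adjusted p = 0.0707), LSS (-0.66, edgeR adjusted p = 0.113) and FDFT1 (-0.06, edgeR adjusted p = 0.876) did not pass, and LSS passed as lower with upper quartile factors and with DESeq2. The lipid droplet coat PLIN2 rose by 3.01 ± 0.55 (edgeR adjusted p = 0.000483), while the efflux pump ABCA1 had a value of 0.16 ± 0.39 (edgeR adjusted p = 0.769).

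Lysosomal genes were higher in 16 of 25 tested members with none lower (median 1.71, 12 to 20 over the alternatives). Subunits of the membrane sector of the proton pump acidify the lysosome. ATP6V0A1, which the list does not hold and which is among the genes of smallest p, was at 12.6, 12.6, 14.5 and 14.7 CPM in Sham and 246, 255, 432 and 215 CPM in Turned Cu (4.34 ± 0.44, edgeR adjusted p = 1.63e-05), and its partner ATP6V0D1, a member, rose by 2.48 ± 0.29. The calcium channel MCOLN1 rose by 2.96 ± 0.36 and TFE3, which drives lysosomal genes, by 2.44 ± 0.36. ATP6V0D2, the subunit known from osteoclasts, was at 1.71 (edgeR adjusted p = 0.148), and MITF, a relative of TFE3, at 0.16 (edgeR adjusted p = 0.792). Relatives within a family therefore did not share a call.

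Proteasome genes rose in part. PSMB8 and PSMB10, catalytic subunits that interferon gamma puts in place of the standard ones, rose by 3.32 ± 0.48 and 1.64 ± 0.33. The activators PSME1 and PSME2 rose by 2.37 ± 0.43 and 2.58 ± 0.40. PSMB8 was at 1.37, 1.21, 3.06 and 2.45 CPM in Sham and 30.7, 14.6, 12.1 and 18.9 CPM in Turned Cu, without overlap. The standard catalytic subunits PSMB5 (0.67, edgeR adjusted p = 0.132), PSMB6 (0.74, edgeR adjusted p = 0.139) and PSMB7 (0.67, edgeR adjusted p = 0.153) did not pass, and PSMB5 and PSMB6 passed as higher with the Turned Cu libraries of rabbits 2 and 4 alone. The standard regulatory subunits PSMD11 and PSMD14 rose by 1.02 ± 0.34 and 1.12 ± 0.42 and are named after their values were seen. Their calls were lost in 11 and 17 of the 21 alternatives, that of PSMD11 without the Turned Cu library of rabbit 2 or 4 or any Sham library, and that of PSMD14 without any of the 8 libraries except the Turned Cu library of rabbit 3. In the whole list 10 of 25 tested members were higher and none lower, and 6 were higher without the Sham library of rabbit 1. The difference between immune and standard subunits was not tested as such.

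Heat shock genes under HSF1 rose by smaller factors. Of 23 tested members 12 were higher and none lower, with a median of 0.86. The count was 7 without the Sham library of rabbit 1 or 4, and 1 member was lower without the Turned Cu library of rabbit 4 or the Sham library of rabbit 1. HSPA8, the constitutive HSP70, was at 217, 236, 360.5 and 374 CPM in Sham and 909, 1216, 1468 and 1119 CPM in Turned Cu (2.01 ± 0.37, edgeR adjusted p = 0.000476). Its cochaperone BAG3 rose by 1.79 ± 0.29 and the small chaperone HSPB1 by 1.72 ± 0.31. The mitochondrial chaperones HSPD1 (0.09, edgeR adjusted p = 0.876) and HSPE1 (-0.30, edgeR adjusted p = 0.639) did not pass. Iron genes were higher in 5 and lower in 5 of 21 tested members, 23.8% each way, which is near the 22.8% and 19.2% of all tested genes, and 3 were lower without the Sham library of rabbit 2. Apart from SLC11A1, the metalloreductase STEAP4 rose by 3.82 ± 0.60 (edgeR adjusted p = 0.000157), and its relative STEAP3, which reduces iron for uptake in erythroid cells, fell by 2.03 ± 0.44 (edgeR adjusted p = 0.00158). The transferrin receptor TFRC rose by 2.08 ± 0.49 against Sham (edgeR adjusted p = 0.00306) and differed from turned titanium by 0.86 ± 0.47 (edgeR adjusted p = 0.161). Of 16 tested zinc genes 2 were higher (12.5%), 4 were lower (25.0%) and 10 did not pass, beside the same shares of all tested genes. A single member was higher without the Turned Cu library of rabbit 1 or 3 or the Sham library of rabbit 3, and 6 were lower with upper quartile factors and with DESeq2. MTF1, the metal sensor that drives the metallothioneins, rose by 1.97 ± 0.33, and the zinc and iron importer SLC39A14 fell by 2.79 ± 0.61 (edgeR adjusted p = 0.00182). The zinc exporter SLC30A1, a known target of MTF1, had a value of 0.79 ± 0.59 (edgeR adjusted p = 0.304).

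**Figure D3:**
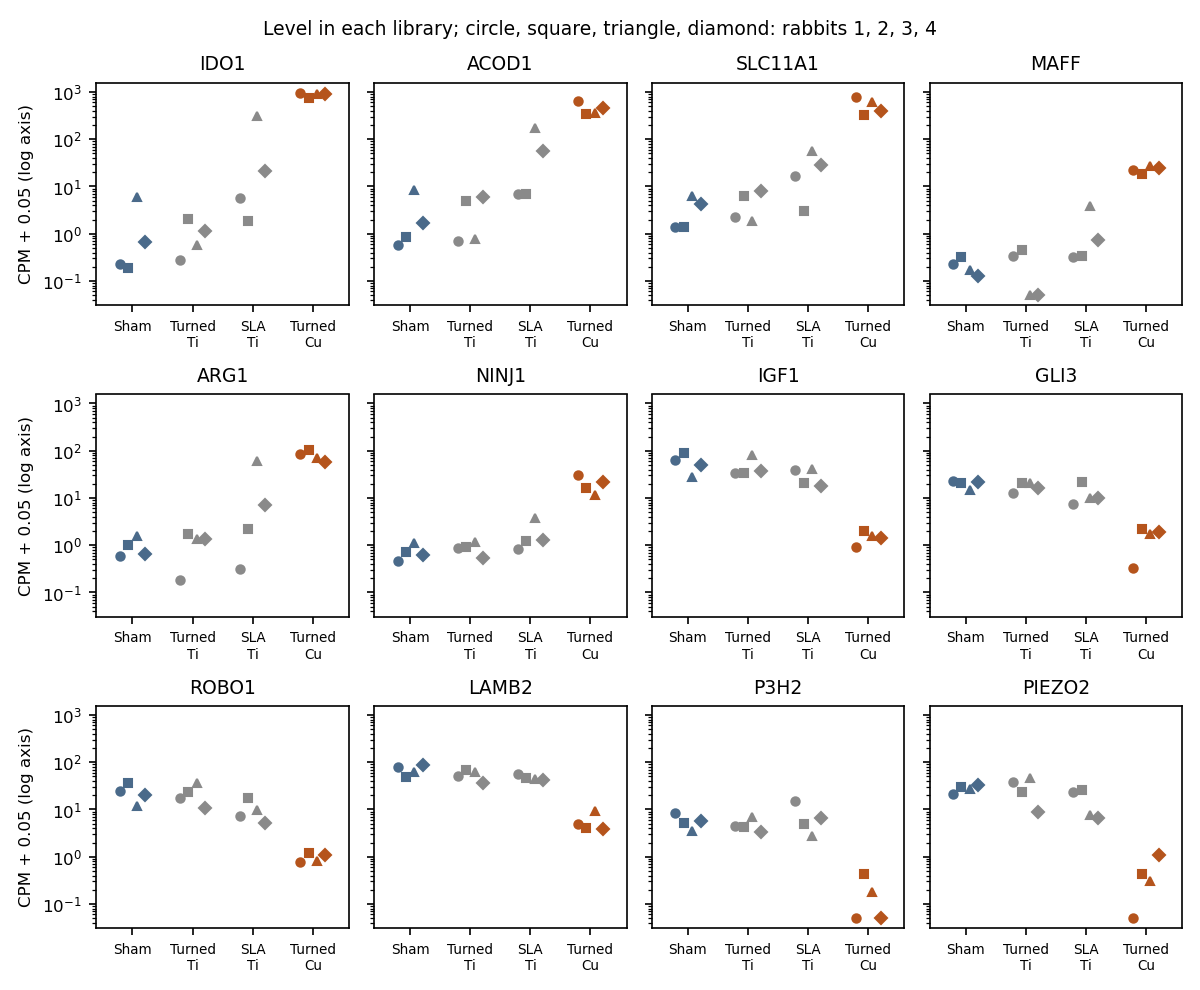
CPM of 12 genes on log axes in all 16 libraries, by implant type, with 0.05 added to each value and 1 marker shape per rabbit. IDO1, ACOD1, SLC11A1, MAFF, ARG1 and NINJ1 are higher in each Turned Cu library than in any Sham library, and IGF1, GLI3, ROBO1, LAMB2, P3H2 and PIEZO2 are lower.

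Genes that execute or hold back cell death were higher more often than lower. Of 18 tested members 10 were higher (55.6%) and 2 lower (11.1%), beside 22.8% and 19.2% of all tested genes. NINJ1, which ruptures the plasma membrane of dying cells, was at 0.417, 0.673, 1.04 and 0.563 CPM in Sham and 29.997, 16.0, 11.3 and 21.9 CPM in Turned Cu (5.01 ± 0.51, edgeR adjusted p = 1.91e-05). The survival protein MCL1 rose by 3.36 ± 0.47, the caspase 8 inhibitor CFLAR by 2.70 ± 0.46 and the death activator BCL2L11 by 3.64 ± 0.49. CASP1 (1.03, edgeR adjusted p = 0.247), GSDME (0.96, edgeR adjusted p = 0.202) and BCL2L1 (0.64, edgeR adjusted p = 0.184) did not pass. Among 14 tested p53 targets and cell cycle brakes 6 were higher (42.9%) and 3 lower (21.4%), or 5 lower with upper quartile factors. All tested genes had 22.8% higher and 19.2% lower, so the lower share is near theirs. PLK3, a stress kinase, was at 1.19, 1.61, 1.04 and 1.53 CPM in Sham and 74.2, 45.7, 76.8 and 21.2 CPM in Turned Cu (5.20 ± 0.68, edgeR adjusted p = 4.84e-05), and MXD1, which competes with MYC for its partner MAX, rose by 5.35 ± 0.86. The inhibitor of cyclin-dependent kinases CDKN2C fell by 2.57 ± 0.42 (edgeR adjusted p = 0.00019). MYC itself had a value of -0.05 ± 0.36 (edgeR adjusted p = 0.929).

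DNA replication and mitosis did not move as a list. Of 27 tested members 4 were higher (14.8%), 2 were lower (7.4%) and 21 did not pass, with a median of -0.27. Both shares lay below the 22.8% and 19.2% of all tested genes. MCM5, a subunit of the replicative helicase, was at 4.65, 3.09, 2.94 and 3.38 CPM in Sham and 37.6, 27.7, 40.5 and 19.1 CPM in Turned Cu (3.19 ± 0.36, edgeR adjusted p = 2.67e-05), and the helicase loader CDC6 rose by 3.58 ± 0.52. The other helicase subunits in the list, MCM2 (-0.62), MCM3 (-0.76), MCM4 (-0.34) and MCM7 (-0.27), had adjusted p-values between 0.247 and 0.543. TOP2A (-0.85, edgeR adjusted p = 0.118), CDK1 (-0.16, edgeR adjusted p = 0.861) and PCNA (-0.27, edgeR adjusted p = 0.612) did not pass, though TOP2A passed as lower in 11 of the 21 alternatives, RLE, upper quartile and DESeq2 scaling among them. The higher count was 2 without the Turned Cu library of rabbit 2 or 3 or the Sham library of rabbit 1 or 4 and with upper quartile factors. The lower count was 5 with RLE and upper quartile factors, with DESeq2 and in the fit of the 8 libraries alone, 6 without the Turned Cu library of rabbit 2 or 4, 7 without the Sham library of rabbit 4, 1 without the Sham library of rabbit 2 and 11 with the Turned Cu libraries of rabbits 1 and 3 alone.

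Housekeeping lists differed between the pairs of rabbits. The nuclear genes of oxidative phosphorylation had 1 of 14 tested members higher and none lower, against 1 lower without the Turned Cu library of rabbit 4 and 5 lower with those of rabbits 1 and 3 alone. Their median log2 ratio of Turned Cu over Sham was -0.32 in rabbit 1, 0.77 in rabbit 2, -0.69 in rabbit 3 and 0.78 in rabbit 4. The proteasome list divided in the same way, with medians of 0.41, 1.38, 0.06 and 1.41, and so did the replication list, with -0.79, 0.27, -1.03 and 0.60. Rabbits 1 and 3 thus lay below rabbits 2 and 4 in all of these lists. In the former the copper implant was distal, and in the latter it was proximal and the Turned Cu library had a mitochondrial share above 92%. Implant site, mitochondrial share and whether Turned Cu and Sham lay in the same tibia cannot be told apart with these animals. With site added to the model as a covariate the number of genes past the test was 2653 higher and 2235 lower. Each group held both sites equally, so this term cannot show whether the change beside copper differs by site. The 12 tested ribosomal protein genes had log2 fold changes from -0.76 to -0.40 and none passed, but 5 were lower with RLE factors, 9 with upper quartile factors and 6 without the Turned Cu or the Sham library of rabbit 2. Without the Turned Cu library of rabbit 4 the count was 3, and without that of rabbit 3 or the Sham library of rabbit 3 or 4 it was 2. All tested genes together had medians of -0.16, 0.16, -0.23 and 0.08 in rabbits 1 to 4.

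Within the citrate cycle list, ACOD1 had the largest change, and 17 of 21 tested members did not pass. The list had 2 higher and 2 lower members (9.5% each), below the 22.8% and 19.2% of all tested genes. The lower count was 4 without the Turned Cu library of rabbit 2 or 4, with upper quartile factors and with DESeq2. Citrate synthase CS had a value of 0.13 ± 0.29 (edgeR adjusted p = 0.746). PDK4, the kinase that shuts pyruvate dehydrogenase when fat is burned, fell from 13.6, 31.1, 18.4 and 12.2 CPM in Sham to 1.29, 1.17, 2.67 and 4.13 CPM in Turned Cu (-3.04 ± 0.49, edgeR adjusted p = 0.000192). SUCLA2, a subunit of succinyl-CoA ligase, rose by 2.40 ± 0.48 (edgeR adjusted p = 0.000955). PDK4 was lower and SUCLA2 higher in every rabbit.

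**Figure D4:**
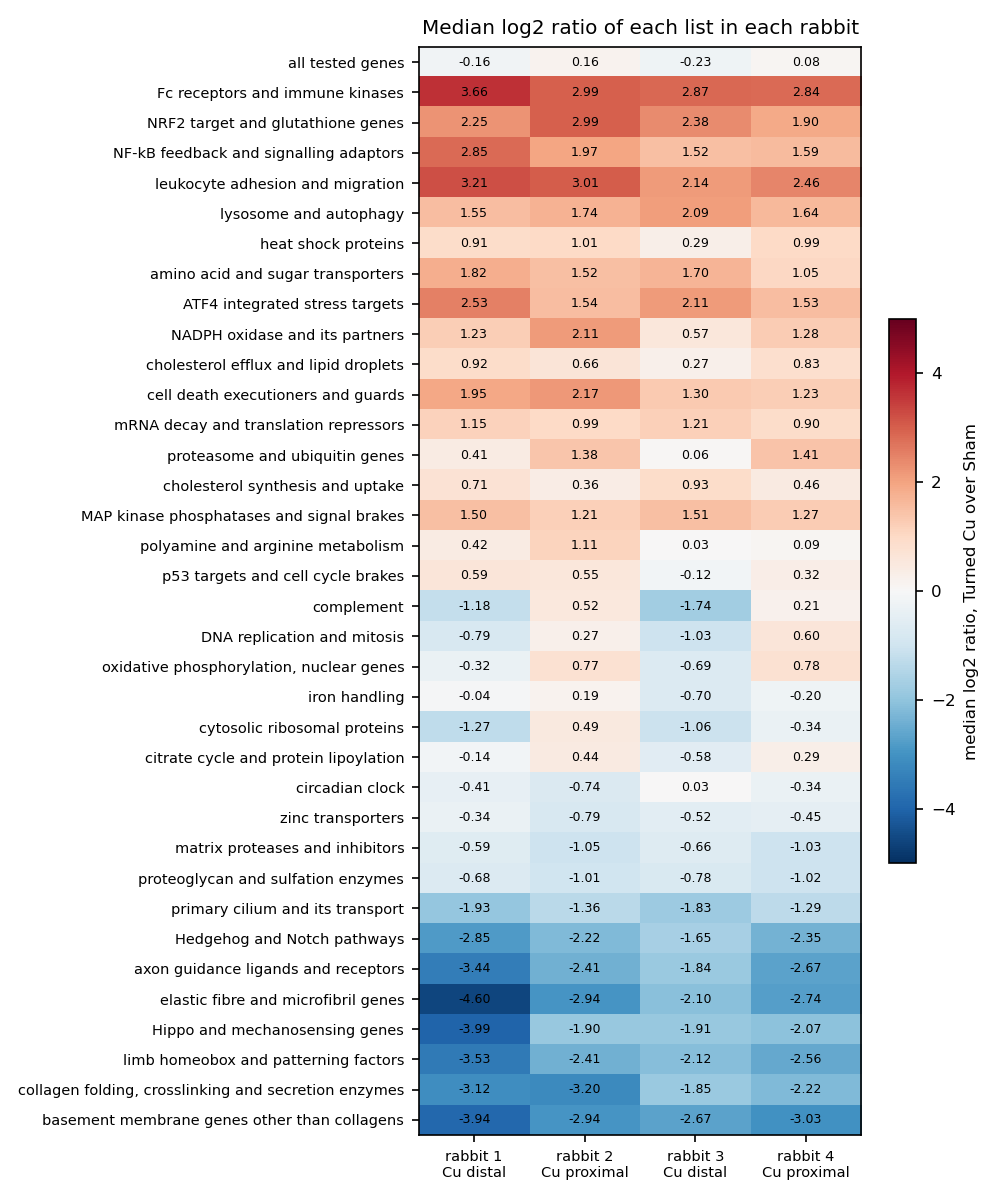
Median log2 ratio of Turned Cu over Sham for each gene list (rows) in each rabbit (columns), coloured from blue for lower to red for higher. The matrix and patterning lists are negative and the leukocyte and NRF2 lists positive in all 4 rabbits, while the oxidative phosphorylation list is at -0.32 and -0.69 in rabbits 1 and 3 and at 0.77 and 0.78 in rabbits 2 and 4.

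On the lower side, the enzymes that fold, trim, crosslink and secrete collagen fell almost as a whole. Their list, too, was chosen with earlier results known. Of 25 tested members 23 were lower and none higher, with a median of -2.70, where 19.2% of all tested genes were lower, and the count lay between 21 and 23 over the alternatives. P4HA3, a prolyl 4-hydroxylase subunit, was at 18.6, 6.32, 10.1 and 8.12 CPM in Sham and 0.287, 0.585, 1.02 and 0.516 CPM in Turned Cu (-4.07 ± 0.50, edgeR adjusted p = 3.89e-05). The prolyl 3-hydroxylase P3H2 was at 8.52, 5.11, 3.43 and 5.59 and 0, 0.390, 0.127 and 0 CPM, 49.3-fold lower (16.8 to 240.0) on counts with edgeR adjusted p = 7.24e-05. In both genes every Turned Cu library was far under the lowest Sham library. FKBP10, a collagen chaperone, fell by 3.66 ± 0.46, PCOLCE, which speeds removal of the carboxyl end of procollagen, fell by 2.55 ± 0.35, and ADAMTS3, which removes the amino end, fell by 4.47 ± 0.63. P4HA1, the prolyl 4-hydroxylase subunit of most cell types, was at -0.09 ± 0.43 (edgeR adjusted p = 0.883), and ADAMTS14 at 0.37 ± 0.44 (edgeR adjusted p = 0.531). The lysyl oxidases, the copper enzymes of collagen crosslinking, were lower in all 5 members tested, with log2 fold changes of -3.62 for LOX, -2.66 for LOXL1, -2.70 for LOXL2, -2.97 for LOXL3 and -5.13 for LOXL4. They are named after their values were seen.

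Basement membrane genes other than collagens fell in 18 of 19 tested members, with a median of -3.33 and 17 or 18 over the alternatives. LAMB2, the laminin chain of vessel, muscle and nerve membranes (ENSOCUG00000005101, chromosome 9 from 16736786 to 16748756), was at 79.4, 49.1, 60.7 and 88.4 CPM in Sham and 4.88, 4.10, 9.17 and 3.79 CPM in Turned Cu (-3.70 ± 0.37, edgeR adjusted p = 1.53e-05). HSPG2, perlecan, which binds growth factors in the membrane, was at 450.4, 201, 340.2 and 457 and 8.61, 7.81, 27.2 and 18.4 CPM (-4.57 ± 0.56, edgeR adjusted p = 3.91e-05). SPARC, which chaperones collagen IV and binds mineral in bone, fell by 3.96 ± 0.50. LAMA3 had 355 counts over the Sham libraries and none over the Turned Cu libraries, so it was at least 44.4-fold lower with the Turned Cu group put at 3 counts in all. LAMB3, the partner of LAMA3 in epithelial laminin, had a value of 0.81 ± 0.64 (edgeR adjusted p = 0.335).

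Of 21 tested elastic fibre and microfibril genes 15 were lower and 2 higher, with a median of -4.17. A single member was higher without any one of the Sham libraries or without the Turned Cu library of rabbit 1 or 3, and with RLE or upper quartile factors. LTBP1, which stores latent TGF-beta in the matrix, was at 24.1, 24.6, 24.0 and 20.5 CPM in Sham and 0.574, 1.37, 2.04 and 1.38 CPM in Turned Cu (-4.17 ± 0.44, edgeR adjusted p = 2.17e-05). MATN4, a matrilin, was 128-fold lower (35.2 to 1060.0) on counts, FBLN2 fell by 4.80 ± 0.57 and THBS2, a thrombospondin that limits vessel growth, fell by 4.56 ± 0.60. Fibronectin did not pass: FN1 was at 639, 667, 682 and 837 CPM in Sham and 778, 402, 476 and 442 CPM in Turned Cu (-0.45 ± 0.67, edgeR adjusted p = 0.627). EMILIN2, a glycoprotein of elastic fibres that was higher when any of the 8 libraries was left out, rose by 2.47 ± 0.47 (edgeR adjusted p = 0.000642) and is named after its value was seen.

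Enzymes that build glycosaminoglycan chains moved in both directions. Of 25 tested, 13 were lower (52.0%), 4 higher (16.0%) and 8 not past the test, beside 19.2% lower and 22.8% higher of all tested genes. The heparan sulfate enzymes NDST1 and EXT2 had log2 fold changes of -1.90 ± 0.31 and -1.70 ± 0.32, and SULF1, which trims sulfate groups from the finished chain, fell by 2.28 ± 0.45. XYLT1 and XYLT2 both start the chains by adding xylose to the protein core, and they moved in opposite directions. XYLT1 was at 17.8, 5.79, 18.2 and 11.5 CPM in Sham and 96.7, 50.5, 107 and 63.3 CPM in Turned Cu (2.61 ± 0.43, edgeR adjusted p = 0.000233). XYLT2 was at 11.0, 9.55, 6.86 and 11.4 and 2.73, 1.17, 2.93 and 3.10 CPM (-1.94 ± 0.34, edgeR adjusted p = 0.000362). The chondroitin 6-sulfotransferase CHST3 rose by 2.85 ± 0.50 (edgeR adjusted p = 0.000366).

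Matrix proteases were mixed, with 12 of 29 tested members lower (41.4%) and 8 higher (27.6%), beside 19.2% and 22.8% of all tested genes. MMP16, a membrane-bound protease, was at 9.89, 22.2, 5.02 and 7.20 CPM in Sham, and 1 count remained in the 4 Turned Cu libraries together, which made it 233-fold lower (41.7 to 9220.0) on counts, edgeR adjusted p = 3.11e-05. ADAM12, a surface protease of mesenchymal cells, fell by 3.34 ± 0.39 and ADAMTS12 fell by 3.91 ± 0.49. PLAUR, the urokinase receptor of migrating leukocytes, was at 5.78, 4.98, 10.5 and 9.49 CPM in Sham and 105, 96.4, 224 and 85.0 CPM in Turned Cu (4.03 ± 0.48, edgeR adjusted p = 3.57e-05), and the myeloid protease ADAM8 rose by 5.30 ± 0.78. ADAM17, which sheds TNF, rose by 2.55 ± 0.38. The inhibitor TIMP1 (-0.22, edgeR adjusted p = 0.725) and the urokinase gene PLAU (0.11, edgeR adjusted p = 0.908) did not pass.

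**Figure D5:**
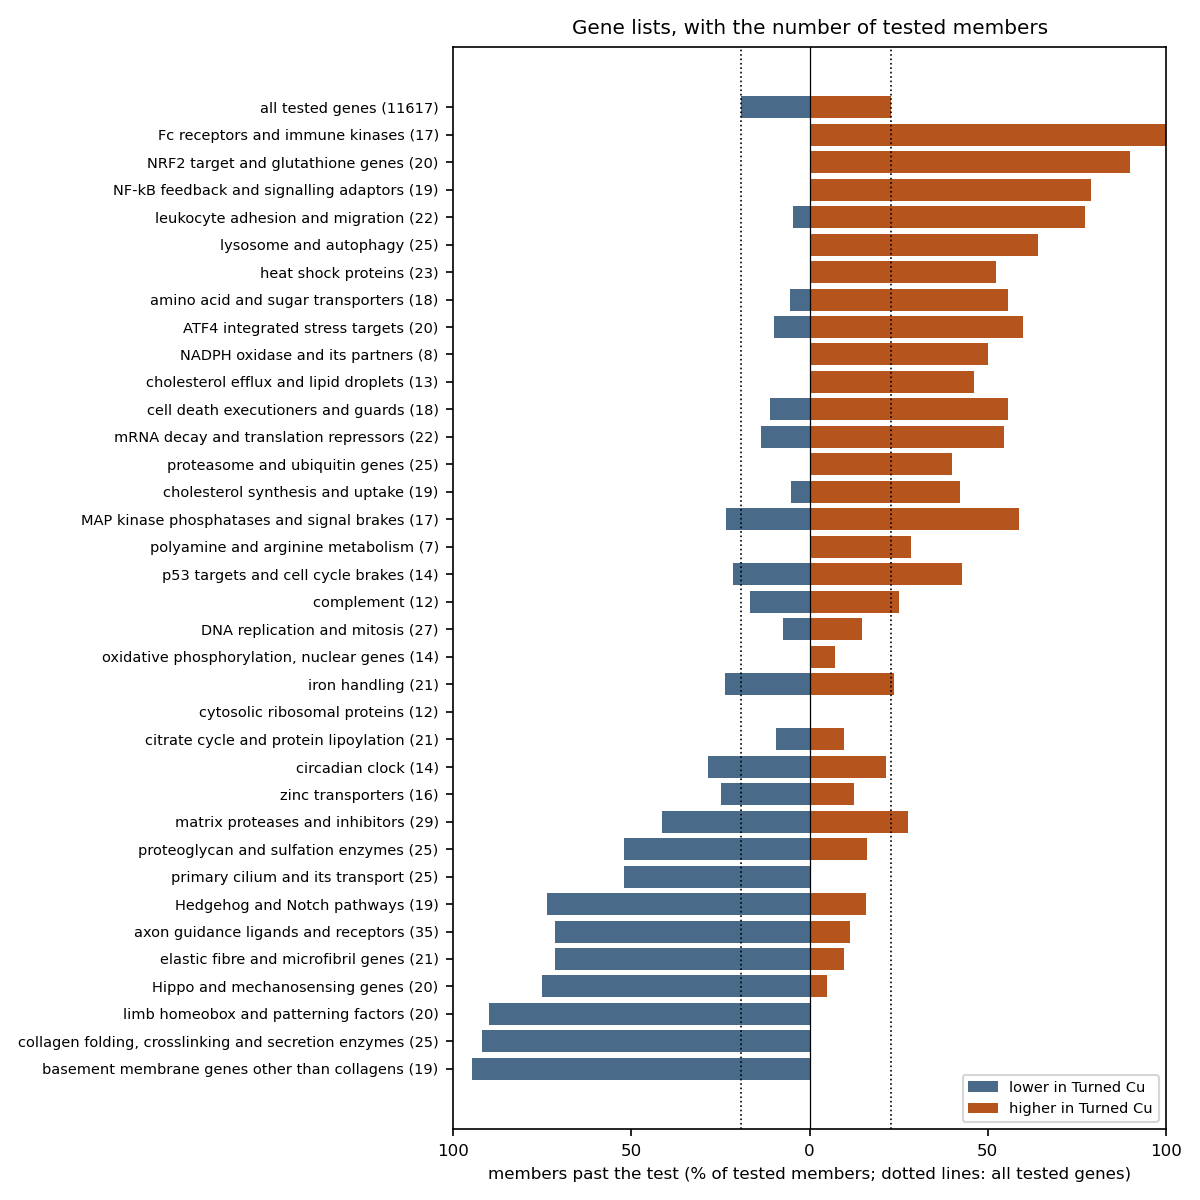
Percent of the tested members of each gene list that were higher (right) and lower (left) in Turned Cu at an adjusted p under 0.05, with the number of tested members after each name, and dotted lines at 22.8% and 19.2% for all tested genes. The immune kinase and NRF2 lists reach 17 of 17 and 18 of 20 higher, and the collagen enzyme and basement membrane lists 23 of 25 and 18 of 19 lower. Lists and members were chosen with earlier results of these data known.

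IGF1 and other signalling and secreted genes fell beside copper. IGF1 (ENSOCUG00000014689, chromosome 4 from 81676119 to 81750443), the growth factor that osteoblasts and marrow stroma make, was at 63.7, 90.4, 27.7 and 48.9 CPM in Sham and 0.861, 1.95, 1.53 and 1.38 CPM in Turned Cu (-5.38 ± 0.52, edgeR adjusted p = 1.38e-05). DAB2IP, a brake on Ras, was at 15.3, 14.7, 14.8 and 20.7 and 0.574, 1.17, 1.15 and 1.38 CPM (-3.96 ± 0.31, edgeR adjusted p = 7.86e-06), the smallest adjusted p among the lower genes that carry a name. PKDCC, a secreted kinase of limb bone growth, fell by 5.11 ± 0.54, and the netrin and BMP co-receptor NEO1 fell by 4.79 ± 0.52. The cyclic nucleotide phosphodiesterases PDE7B and PDE10A had log2 fold changes of -3.46 ± 0.37 and -4.48 ± 0.48. MEST, an imprinted gene of mesodermal tissue, and SCUBE3, a secreted regulator of bone growth, were 248-fold lower (44.4 to 9810.0) and 143-fold lower (39.5 to 1180.0) on counts, from Sham levels of 7.35 to 17.9 and 8.04 to 15.0 CPM.

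Hedgehog and Notch genes were lower in 14 of 19 tested members and higher in 3, with 1 to 5 higher over the alternatives. Hedgehog signals through the membrane protein SMO to the GLI factors, and Notch receptors signal to the HES and HEY repressors. GLI3 (ENSOCUG00000006563, chromosome 10 from 24950515 to 25228857) was at 22.3, 20.7, 14.7 and 21.8 CPM in Sham and 0.287, 2.15, 1.66 and 1.89 CPM in Turned Cu (-3.86 ± 0.42, edgeR adjusted p = 2.36e-05). SMO fell by 3.50 ± 0.50 and the Hedgehog co-receptor BOC fell by 4.22 ± 0.52. The endothelial Notch ligand DLL4 fell by 3.94 ± 0.69. HES1 rose by 3.37 ± 0.61 (edgeR adjusted p = 0.000433), from 2.20 to 4.44 CPM to 31.0 to 43.4 CPM, so that the targets of Notch did not share a direction. The targets HEY1 and HEY2 are named after their values were seen. HEY1 had 48 counts over the Sham libraries and none over the Turned Cu libraries, at least 5.52-fold lower with the Turned Cu group put at 3 counts in all, and HEY2 was 20.3-fold lower (6.83 to 99.7). The Notch ligand JAG1 had a value of 1.08 ± 0.44 (edgeR adjusted p = 0.0594).

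Hippo and mechanosensing genes were lower in 15 of 20 tested members and higher in 1. YAP1, the factor through which stiff matrix acts on the nucleus, was at 15.3, 11.0, 13.5 and 10.8 CPM in Sham and 0.861, 2.34, 0.764 and 3.10 CPM in Turned Cu (-2.91 ± 0.41, edgeR adjusted p = 7.24e-05). PIEZO2, a stretch-gated channel, was at 21.1, 29.6, 26.9 and 32.2 and 0, 0.390, 0.255 and 1.03 CPM (-6.09 ± 0.78, edgeR adjusted p = 4.36e-05). TEAD4, a DNA-binding partner of YAP1, fell by 2.46 ± 0.33, AMOTL1 fell by 3.50 ± 0.43 and the giant cadherin FAT4 fell by 4.29 ± 0.63. The kinases LATS1 (-0.76, edgeR adjusted p = 0.0547) and LATS2 (0.32, edgeR adjusted p = 0.282) did not pass in this fit, but LATS1 passed as lower in 16 of the 21 alternatives, RLE, upper quartile and DESeq2 scaling among them. Primary cilium genes, on which Hedgehog signalling depends, were lower in 13 of 25 tested members and higher in none, with 11 to 19 lower over the alternatives. KIF3A, the motor that carries cargo up the cilium, was at 18.1, 16.0, 19.7 and 18.3 CPM in Sham and 2.58, 6.05, 5.22 and 7.75 CPM in Turned Cu (-1.78 ± 0.30, edgeR adjusted p = 0.000283). The Bardet-Biedl protein BBS9 fell by 2.16 ± 0.37 and the transport subunits IFT172 and IFT140 had values of -1.55 ± 0.30 and -1.62 ± 0.32. IFT52 (-0.01, edgeR adjusted p = 0.987) and IFT80 (-0.54, edgeR adjusted p = 0.444) did not pass.

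Axon guidance genes, which also steer vessels and bone cells, were lower in 25 of 35 tested members and higher in 4. The receptor ROBO1 was at 25.0, 35.7, 11.9 and 20.0 CPM in Sham and 0.718, 1.17, 0.764 and 1.03 CPM in Turned Cu (-4.65 ± 0.46, edgeR adjusted p = 1.56e-05), and its ligand SLIT3 was at 44.7, 40.8, 14.0 and 40.9 and 0.144, 0.585, 3.57 and 1.38 CPM (-4.75 ± 0.64, edgeR adjusted p = 5.65e-05). EPHB4, the ephrin receptor of veins and osteoblasts, fell by 4.45 ± 0.49, and the netrin receptor UNC5B fell by 4.04 ± 0.57. UNC5C had 369 counts over the Sham libraries and none over the Turned Cu libraries, at least 58.6-fold lower on the same footing. The semaphorin co-receptor NRP1 (0.40, edgeR adjusted p = 0.378) and the ligand EFNB2 (-0.93, edgeR adjusted p = 0.189) did not pass. The count of higher axon guidance members was 1 with upper quartile scaling and without the Turned Cu or the Sham library of rabbit 1 or 3, and 2 without the Turned Cu library of rabbit 2 or the Sham library of rabbit 2 or 4.

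Transcription factors that mark limb skeletal cells were lower in 18 of 20 tested members and higher in none, with a median of -3.26. The summed level of the list was 148.7 to 228.5 CPM in Sham and 5.9 to 25.0 CPM in Turned Cu. ZFHX4 was at 91.3, 94.3, 49.2 and 46.0 CPM in Sham and 0.431, 1.17, 5.73 and 2.93 CPM in Turned Cu (-4.93 ± 0.69, edgeR adjusted p = 7.24e-05). DLX5, which drives osteoblast differentiation, was at 8.46, 6.19, 4.04 and 5.75 and 0, 0.195, 0 and 0.172 CPM, 78.1-fold lower (21.5 to 648) on counts with edgeR adjusted p = 0.000172. TBX2 fell by 3.54 ± 0.51 and SHOX2, a regulator of limb bone length, fell by 3.60 ± 0.58. MSX2 had a value of -1.34 (edgeR adjusted p = 0.245).

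The stromal markers measured beside these lists moved with them. Of 11 tested fibroblast markers 9 were lower, and their summed level was 575.0 to 732.2 CPM in Sham and 54.8 to 109.8 CPM in Turned Cu. Pericyte and smooth muscle markers were lower in 8 of 12, with sums of 207.5 to 296.9 and 35.7 to 65.2 CPM. Osteoglycin OGN, a small proteoglycan of fibroblasts and bone cells, was at 106, 80.9, 128 and 97.6 CPM in Sham and 0.431, 1.17, 2.80 and 0.689 CPM in Turned Cu (-6.54 ± 0.79, edgeR adjusted p = 3.78e-05). ASPN fell by 5.25 ± 1.05 and the smooth muscle protein SMTN fell by 2.90 ± 0.52. Osteoblast markers were lower in 10 of 14 and osteocyte markers in 6 of 8. OMD, osteomodulin, was at 30.4, 51.7, 24.9 and 12.7 CPM in Sham and 0.144, 0.195, 1.02 and 0.172 CPM in Turned Cu (-7.42 ± 1.13, edgeR adjusted p = 0.000121), and IRX5 fell by 4.66 ± 0.82. The part of these cell types in the lower calls was not tested.

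Vessel markers were lower in 14 of 18 tested members. The lymphatic and sinusoidal receptor FLT4 was at 36.6, 9.15, 9.43 and 21.9 CPM in Sham and 0, 0.781, 0.127 and 0.172 CPM in Turned Cu (-6.29 ± 0.96, edgeR adjusted p = 0.000124), and TIE1 fell by 3.97 ± 0.61. The summed level of the endothelial list was, despite this, 626.6 to 1216.7 CPM in Turned Cu and 264.3 to 667.0 CPM in Sham. That sum was carried by PECAM1, which leukocytes and platelets also make and which was at 904, 567, 947 and 447 CPM beside copper. VWF, stored by vessel cells and platelets, had a value of -1.98 ± 1.08 (edgeR adjusted p = 0.154), and the platelet integrin subunit ITGA2B was 22.0-fold lower (7.42 to 108) on counts (edgeR adjusted p = 0.000157), from 2.01 to 3.16 CPM in Sham. Fat cell markers had 1 of 5 tested members lower (20.0%), near the 19.2% of all tested genes. The count was 2 without the Sham library of rabbit 1 or with DESeq2. PPARG (-0.94, edgeR adjusted p = 0.261) and LPL (-0.22, edgeR adjusted p = 0.807) did not pass.

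Of 14 tested clock genes 3 were higher (21.4%) and 4 lower (28.6%), beside 22.8% and 19.2% of all tested genes. The lower count was 2 in the fit of the 8 libraries alone and with the Turned Cu libraries of rabbits 2 and 4 alone. PER1, which glucocorticoids and stress signals also turn on, was at 6.97, 7.53, 8.14 and 10.1 CPM in Sham and 98.7, 37.3, 85.1 and 40.6 CPM in Turned Cu (2.98 ± 0.45, edgeR adjusted p = 0.000114). NFIL3 rose by 2.88 ± 0.58, and NR1D2, a repressor of the clock, fell by 1.50 ± 0.32 (edgeR adjusted p = 0.00165). ARNTL (0.42, edgeR adjusted p = 0.436), PER2 (0.49, edgeR adjusted p = 0.457) and CRY2 (-0.33, edgeR adjusted p = 0.52), members of the core loop, did not pass. Of 12 tested complement genes 3 were higher (25.0%) and 2 lower (16.7%), near the shares of all tested genes. The anaphylatoxin receptor C5AR1 rose by 2.89 ± 0.52 and properdin, CFP, by 2.82 ± 0.56, while the protease C1R fell by 2.11 ± 0.36 and its inhibitor SERPING1 fell by 2.07 ± 0.47. The number of lower complement genes was 6 without the Turned Cu library of rabbit 2, 5 without that of rabbit 4 and 4 without the Sham library of rabbit 1, with RLE or upper quartile factors and with DESeq2. The list's medians were -1.18 and -1.74 in rabbits 1 and 3 and 0.52 and 0.21 in rabbits 2 and 4.

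Against turned titanium, the implant of the same finish, 4629 of the 11617 genes (39.8%) differed from Turned Cu. This comparison uses the same 4 Turned Cu libraries, so its values are set beside those above and are no second line of evidence. ACOD1 was at 2.99 ± 2.69 CPM beside turned titanium (mean ± SD, n = 4) and Turned Cu lay 7.52 ± 1.17 above it on the log2 scale (edgeR adjusted p = 0.000194). GLI3 was at 17.5 ± 3.82 CPM there, with Turned Cu at -3.62 ± 0.42 (edgeR adjusted p = 4.45e-05). MAFF was at 0.171 ± 0.202 CPM and ARG1 at 1.10 ± 0.673 CPM beside turned titanium, and at 0.163 ± 0.0816 and 0.903 ± 0.455 CPM in Sham. Some genes that rose against Sham did not pass against turned titanium. RYR1, the calcium channel of skeletal muscle, rose by 4.21 ± 0.86 against Sham (edgeR adjusted p = 0.00115), was at 10.1 ± 17.7 CPM beside turned titanium and was 1.54 ± 0.84 above turned titanium (edgeR adjusted p = 0.157). LIPA, the lysosomal acid lipase, rose by 2.01 ± 0.53 against Sham (edgeR adjusted p = 0.00679), was at 19.1 ± 20.2 CPM beside turned titanium and was 0.97 ± 0.55 above turned titanium (edgeR adjusted p = 0.174).

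Skeletal muscle markers were 3 of 6 higher, and their summed level was 4.4 to 6.7 CPM in Sham and 32.1 to 64.7 CPM in Turned Cu. MYBPC1, a myosin-binding protein of muscle, was at 3.04, 4.71, 4.96 and 2.29 CPM in Sham and 14.8, 26.1, 24.2 and 23.9 CPM in Turned Cu (2.64 ± 0.45, edgeR adjusted p = 0.000284). The muscle troponin TNNT3 had a value of 1.66 (edgeR adjusted p = 0.209). The myelin gene MBP, whose locus also gives Golli transcripts in blood cells, was at 3.40, 2.42, 2.57 and 2.41 CPM in Sham and 91.7, 108, 144 and 68.7 CPM in Turned Cu (5.22 ± 0.44, edgeR adjusted p = 8.15e-06). EGR2 and PRX, listed here as Schwann cell markers, rose by 6.51 ± 0.99 and 2.33 ± 0.41. NCAM1, an adhesion protein of nerve and stromal cells, fell by 5.19 ± 0.66. Which cells made these transcripts was not tested. The receptor ERBB3, on which Schwann cells depend, had a value of 0.69 ± 0.61 (edgeR adjusted p = 0.393).

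Some of the highest genes are known mainly from other tissues, and several lie next to another gene that also rose. OVGP1, known from the oviduct (chromosome 13 from 52788863 to 52803127), was at 0, 0, 0.122 and 0.0804 CPM in Sham and 17.9, 12.7, 30.3 and 16.7 CPM in Turned Cu (8.42 ± 0.99, edgeR adjusted p = 3.29e-05). It lies 16006 bases from WDR77, which rose by 6.04 ± 0.56, and WDR77 lies 24934 bases from C1orf162, which rose by 8.26 ± 1.32 to 262 to 423 CPM. ASPRV1, a protease known from the epidermis, was 498-fold higher (88.3 to 19800.0) on counts and lies 22056 bases from MXD1. LIPN, an epidermal lipase, rose by 8.12 ± 1.35 and lies 49562 bases from ANKRD22, which rose by 4.32. OLR1 lies 20860 bases from the fungal receptor CLEC7A, which rose by 3.71. DNAH17, a dynein of cilia and sperm tails, rose by 5.18 ± 0.44 (edgeR adjusted p = 8.15e-06) and overlaps PGS1, which rose by 2.58. MATN1, a cartilage matrilin, rose by 3.72 ± 0.48, to 596, 419, 643 and 450.5 CPM, while the cartilage factor SOX9 fell by 3.88 ± 0.93 (edgeR adjusted p = 0.00336). In the RefSeq gene order MATN1 is a neighbour of LAPTM5, a lysosomal protein gene of blood cells that was not analysed here. The sources used here do not say whether the counting used strand, so reads of overlapping or adjoining genes cannot be told apart, and the part of neighbouring transcripts in these values was not tested. The neighbours ANKRD22, CLEC7A and PGS1 were chosen by position after the values of their partners were seen.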

How the data were processed

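Total RNA was sequenced as paired-end stranded libraries from 16 holes in 4 rabbits, per the labels. The authors' deposited gene table gives an estimated count and an RPKM value per gene and library, per the file headers. The submitters' processing notes name STAR 2.7.1a and Cufflinks 2.2.1, and the genome build and the use of strand in counting are not given in the sources used here. The deposited counts were whole and were tested as estimated counts, since 191 values in 146 genes have a count of 0 and an RPKM above 0. The deposited log2 fold changes and p-values of the authors' own comparisons and the authors' count of genes per comparison were used only where the authors' table is named. Coordinates are those of the gene table. RPKM values served only for that check.

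Counts were fitted with edgeR 4.0.16 in R 4.3.3: TMM factors, a minimum count of 10, a quasi-likelihood model over all 16 libraries with the rabbit as a block and a two-sided contrast of Turned Cu against Sham. The fitting procedure was run on simulated counts in which few genes changed, equally in both directions. That run cannot show how the scaling behaves where many genes differ, as they do here. The rabbit numbers pair libraries because each animal gave 1 of each, per the labels. The deviations of the paired libraries from their group means correlated at 0.087, 0.173, -0.006 and -0.021. The SE is the log2 fold change divided by the square root of the F statistic, and CPM uses the TMM-scaled library size. Of 29587 rows 14981 carry no name, and 69 names came from the description column. Named are the 15 highest and 15 lowest fold changes, the 15 smallest p-values in each direction, up to 6 members of smallest p per list and list members that did not pass. Cytokines, collagen chains and metallothioneins were kept out of these rankings, and other genes are said to be chosen after their values were seen. A few genes that this rule names are not reported here. The members and lists were chosen with earlier results of these data known. DESeq2 1.42.0, other scalings and filters, left-out libraries and a site covariate were tried as alternatives. Python 3.11.15, pandas 2.3.3 and matplotlib 3.10.9 made tables and figures. No 2 libraries held identical values, and the replicates of each group differed by more than sampling noise, with chi-square over degrees of freedom of 53.8 to 419 among the Turned Cu and 94.4 to 1195 among the Sham pairs. P-values rest on the spread left among all 16 libraries once implant type and rabbit are fitted, with 9 residual degrees of freedom, shared in part across genes. That spread pools the 4 implant types in 4 animals. It is not the spread of the Turned Cu over Sham change alone. Floors of 3 counts cover counting error only, since reads carry no molecular identifiers.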

Additional observations from a re-analysis of the deposited data

Results flagged for a closer look

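Groups of 4 libraries were examined for the genes named here and for library totals. In 49 of 564 a library's gap to the nearest other passed Dixon's 95% critical value for 4 values. For normally distributed values chance flags about 1 in 20, but CPM values near 0 are skewed. A gene with a count in 1 library of a group alone is always flagged. The 49 can therefore not be read as an excess. In CPM, the Sham library of rabbit 3 was above the range of the other 3 Sham libraries for ACOD1 (8.39 against 0.536 to 1.61), BTG2 (8.76 against 4.04 to 4.59), C1QA (5.94 against 0.523 to 0.942), C5AR1 (11.9 against 3.38 to 4.44) and CNOT3 (12.6 against 9.24 to 9.77). It was above them as well for CS (28.5 against 23.1 to 23.9), CXCR2 (10.0 against 0.404 to 1.29), ECRG4 (7.84 against 6.59 to 6.67), EPX (28.1 against 0 to 2.57) and FPR2 (3.55 against 0.179 to 0.442). The same library was high for HRH4 (0.245 against 0 to 0.0402), IDO1 (5.94 against 0.135 to 0.603), SELP (2.33 against 0 to 0.298), SLC16A3 (7.10 against 0.673 to 1.45) and TXN (13.7 against 6.59 to 7.63).

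The Sham library of rabbit 1 was above the other Sham libraries for CHST3 (11.9 against 10.1 to 10.3), ICAM1 (17.4 against 9.96 to 11.0), LOXL3 (23.4 against 12.7 to 14.0) and MBP (3.40 against 2.41 to 2.57). The Sham library of rabbit 2 was above the other Sham libraries for EGR2 (0.942 against 0.161 to 0.245), JCHAIN (87.6 against 6.02 to 15.5), LOX (75.1 against 24.4 to 31.5), MZB1 (8.88 against 1.41 to 2.25) and SPARC (1310.0 against 608 to 677). In the Sham library of rabbit 2 this held also for TFRC (15.9 against 3.75 to 5.63) and UNC5C (13.3 against 3.98 to 5.42). The Sham library of rabbit 4 was above the other Sham libraries for DAB2IP (20.7 against 14.7 to 15.3), KRT15 (2.09 against 0.404 to 0.536) and NOS2 (0.885 against 0.184 to 0.269). LTBP1 was lower in the Sham library of rabbit 4, at 20.5 CPM against 24.0 to 24.6 CPM. SLIT3 was lower in the Sham library of rabbit 3, at 14.0 CPM against 40.8 to 44.7 CPM.

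The Turned Cu library of rabbit 3 was above the other Turned Cu libraries for KRT15 (1.40 against 0 to 0.195), NR1D2 (8.40 against 4.16 to 4.88), OMD (1.02 against 0.144 to 0.195), PLAUR (224 against 85.0 to 105) and PTPRN (14.9 against 3.79 to 4.29). The Turned Cu library of rabbit 4 was above the other Turned Cu libraries for LOX (5.68 against 2.04 to 2.54). The Turned Cu library of rabbit 2 was below the other Turned Cu libraries for BAG3 (26.3 against 38.6 to 40.9). The Turned Cu library of rabbit 4 was below the other Turned Cu libraries for SLC7A5 (236 against 411 to 448). A count in 1 Sham library alone, with none in the other 3, was found for ASPRV1 (rabbit 4, 0.0402 CPM), OLR1 (rabbit 3, 0.245 CPM) and RASD2 (rabbit 3, 0.306 CPM). A count in 1 Turned Cu library alone, with none in the other 3, was found for ABCA8 (rabbit 1, 0.144 CPM), ECRG4 (rabbit 2, 0.195 CPM), GALNT5 (rabbit 3, 0.127 CPM), MEST (rabbit 2, 0.195 CPM), MMP16 (rabbit 4, 0.172 CPM), SCARA5 (rabbit 3, 0.382 CPM) and SCUBE3 (rabbit 1, 0.287 CPM).

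Lists whose median change went opposite ways in rabbits 1 and 3, with distal copper, and in rabbits 2 and 4, with proximal copper, were also noted. The mean of the latter minus the mean of the former was 1.28 on the log2 scale for oxidative phosphorylation, 1.34 for DNA replication, 1.82 for complement, 0.72 for the citrate cycle and 0.32 for all tested genes. This difference was not tested, and the site of copper cannot be told apart from whether Turned Cu and Sham shared a tibia.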

How the results depend on the processing

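Leaving out 1 library at a time gave 1958 to 2476 higher and 2153 to 2666 lower genes. Without the replicate block, so without the pairing by rabbit, the counts were 2695 and 2273. With the Turned Cu libraries of rabbits 2 and 4 alone, an alternative chosen after seeing the data, 1604 genes were higher and 2007 lower. The cause of the drop was not tested, though fewer libraries entered that fit. With those of rabbits 1 and 3 alone, also chosen after seeing the data, 2482 were higher and 2785 lower. DESeq2 gave 2564 and 2986, fitting the 8 libraries on their own 2095 and 2134, and leaving out the SLA titanium library of rabbit 3 gave 2315 and 2686. Of the 200 named genes past the test, 192 kept their direction and their call in all 21 alternatives. The exceptions were EPX, GPNMB, LIPA, NFIL3, PSMD11, PSMD14, RAC1 and TFRC, which kept their direction. Of the 77 named genes not past the test 30 passed in at least 1 alternative, most often LATS1 (in 16), C1QC (13), SLC7A2 (12) and TOP2A (11). HSPD1, 1 of these 30, turned to -1.16 (edgeR adjusted p = 0.013) with rabbits 1 and 3 alone. Of 108 list counts, 46 moved by more than 1.5 times in some alternative. A coding depth of 965804 counts in the shallowest Sham library and 988967 in the shallowest Turned Cu library limits genes near 0, whose fold changes depend on the prior count.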

Other observations

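Some genes of extreme change belong to no group described above. Among the higher genes, AP3M2, a subunit of an endosomal adaptor complex, rose by 4.48 ± 0.42, the phosphodiesterase GDE1 by 4.18 ± 0.36 and the RNA-binding protein RBM47 by 3.50 ± 0.34. CYSTM1, a small membrane protein, was at 0.0596, 0, 0.490 and 0.322 CPM in Sham and 74.5, 46.4, 64.7 and 55.4 CPM in Turned Cu (8.44 ± 1.17, edgeR adjusted p = 6.83e-05). RASD2, a Ras relative known from the striatum of the brain, was at 0, 0, 0.306 and 0 CPM in Sham and 7.32, 13.7, 21.8 and 16.7 CPM in Turned Cu (8.17 ± 1.40, edgeR adjusted p = 0.000286). Neither gene had a Sham library near its Turned Cu libraries.

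Among the lower genes, SCARA5, a ferritin receptor of stromal cells, was at 3.46, 15.5, 11.1 and 20.1 CPM in Sham and 0, 0, 0.382 and 0 CPM in Turned Cu, 112-fold lower (38.2 to 545) on counts with edgeR adjusted p = 0.000134. The lipid transporter ABCA8 was 134-fold lower (23.9 to 5300.0), the mucin-type glycosylation enzyme GALNT5 was 137-fold lower (24.4 to 5430.0) and the secreted peptide gene ECRG4 was 179-fold lower (31.9 to 7080.0), each with 1 count over the Turned Cu libraries. TLN2, the talin that is not the main form of blood cells, fell by 3.88 ± 0.39 and the polarity protein PARD3B fell by 3.10 ± 0.33.

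Long non-coding RNAs were higher more often than lower: of 327 tested by the gene table's class, 122 passed upwards and 27 downwards, beside 2502 and 2192 of 11165 protein-coding genes. The difference between the classes was not tested, and reads of an overlapping coding gene cannot be told apart from theirs where the strand was not used. Genes with no count in any Turned Cu library numbered 113 among those called lower, and genes with no count in any Sham library 15 among those called higher. These numbers are not on an equal footing. The TMM-scaled library sizes were 5124583 to 7853957 in Turned Cu and 7432219 to 24872645 in Sham. A group total of 0 is thus reached more easily in Turned Cu at the same level. Tested genes with no count in a group were not counted outside the calls.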
